A study of Mus musculus with 2 samples.

Results

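The HoxD cluster is a row of 9 Hoxd genes on mouse chromosome 2, running from Hoxd13 to Hoxd1 with all genes read in the same direction. CpG methylation of the cluster was read from reduced-representation bisulfite sequencing (RRBS), in which bisulfite turns unmethylated cytosine into uracil and a cytosine still read as cytosine is scored as methylated. The members were defined by their position in a cluster that was itself picked with earlier results of these data known. All CpGs between 74500001 and 74610001 of chromosome 2 in the mm9 build were taken, which gave 989 of the 1790826 CpGs in the table. The samples were mouse embryonic fibroblasts (MEFs), which are connective tissue cells grown from embryos, with 1 library labelled Dnmt1+/+ and 1 labelled Dnmt1-/-. Dnmt1 encodes the enzyme that copies CpG methylation onto the new DNA strand after replication. The cells called Dnmt1-/- carry a hypomorphic Dnmt1 allele on both chromosomes, and both lines are also homozygous null for trp53, which encodes p53. The trp53-null line with intact Dnmt1 is therefore the control. Age and sex of the embryos are not given in the sources used here. The 2 libraries have no replicates, so every difference below is between libraries and cannot be told apart from a difference between the cultures they came from.

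Hox genes encode homeodomain transcription factors that give positional identity along the body axis and, in the HoxD cluster, along the limb. The order of the genes on the chromosome follows the order of their expression domains, with Hoxd1 and Hoxd3 active anteriorly and Hoxd13 at the posterior and distal end. Hox clusters are rich in CpG islands that normally carry little DNA methylation, and in cells where the genes are silent they are textbook targets of Polycomb repression. No expression or chromatin data of these cells were analysed here.

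The sequences that show the contrast within the cluster are given first, from NCBIM37 (mm9), plus strand, with each measured CpG outside CCGG and TCGA in capitals. CpGs inside CCGG or TCGA are treated apart because of their distinct readings, described below. The first is in the first coding exon of Hoxd12 (chr2:74513274-74513573) and held 15 such CpGs, all called higher in the Dnmt1-/- library. The second (chr2:74525531-74525725) lies between the Hoxd11 and Hoxd10 transcripts with the longest coding sequence. It is inside the spans of another annotated Hoxd11 transcript and of the long noncoding RNA Gm20440. The third lies in the long intron before the coding exons of Hoxd3 (chr2:74574226-74574525). The fourth spans the Mir10b hairpin inside Hoxd4 and the bases after it (chr2:74564088-74564247). The last is the start of the Hoxd13 coding sequence (chr2:74506367-74506606), where 26 CpGs were low in both libraries.
Hoxd12 coding exon: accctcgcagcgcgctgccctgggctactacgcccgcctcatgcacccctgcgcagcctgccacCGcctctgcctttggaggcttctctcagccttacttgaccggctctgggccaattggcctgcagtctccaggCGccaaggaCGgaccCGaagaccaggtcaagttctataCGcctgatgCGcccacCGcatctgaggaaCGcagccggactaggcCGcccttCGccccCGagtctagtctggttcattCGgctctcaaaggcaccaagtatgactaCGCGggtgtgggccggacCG
Hoxd11 to Hoxd10: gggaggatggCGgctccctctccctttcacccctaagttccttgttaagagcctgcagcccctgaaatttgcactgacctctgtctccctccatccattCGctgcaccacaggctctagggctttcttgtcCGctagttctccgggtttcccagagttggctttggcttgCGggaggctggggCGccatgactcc
Hoxd3 intron: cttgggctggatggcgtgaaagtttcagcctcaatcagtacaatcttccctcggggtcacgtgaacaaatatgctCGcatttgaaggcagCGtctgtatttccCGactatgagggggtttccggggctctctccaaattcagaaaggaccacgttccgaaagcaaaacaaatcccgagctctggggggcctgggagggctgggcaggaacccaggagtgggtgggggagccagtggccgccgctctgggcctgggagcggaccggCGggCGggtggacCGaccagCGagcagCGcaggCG
Mir10b region: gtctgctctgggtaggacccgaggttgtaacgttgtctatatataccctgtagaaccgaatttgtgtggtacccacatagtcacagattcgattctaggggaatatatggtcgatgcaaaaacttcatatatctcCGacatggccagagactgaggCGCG
Hoxd13 first coding exon: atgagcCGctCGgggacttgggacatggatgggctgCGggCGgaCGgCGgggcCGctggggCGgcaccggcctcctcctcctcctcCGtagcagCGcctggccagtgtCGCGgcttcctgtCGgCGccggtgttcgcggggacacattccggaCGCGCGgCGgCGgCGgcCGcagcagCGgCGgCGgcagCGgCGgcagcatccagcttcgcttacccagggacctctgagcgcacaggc
The Hoxd12 exon averaged 23.2% methylation in the Dnmt1+/+ library and 63.4% in the Dnmt1-/- library. The stretch between Hoxd11 and Hoxd10 averaged 6.89% and 44.7% over 5 CpGs. The Hoxd3 intron averaged 10.7% and 71.7% over 9 CpGs, and the Mir10b region 20.6% and 80.7% over 3 CpGs. The start of Hoxd13 averaged 7.06% and 1.49%. GC content was 64.7%, 59.0%, 61.7%, 46.9% and 75% in the order shown. The stretch that stayed low was the richest in G and C, but the 5 were picked by their methylation and describe only themselves.

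The files held 33.9% of the 2914 CpGs of the window. Depth, the number of methylation calls at a CpG, had a median of 54 (range 10 to 190) in the Dnmt1+/+ library and 39 (range 10 to 168) in the Dnmt1-/- library. The cluster was read more deeply than the table as a whole, whose medians were 29 and 30. In total the window held 63000 calls in Dnmt1+/+ and 49942 calls in Dnmt1-/-. Their ratio was 0.793, whereas the ratio over the whole table was 1.05. A CpG with 0 methylated calls at the median depth allows up to 5.56% and 7.69% methylation in the respective libraries (3 calls). Of the 745 CpGs outside CCGG and TCGA, 450 lay within 1 kb of the start of the main transcript of a Hoxd gene, and 571 within 1 kb of any annotated Hoxd start. The longest stretch without a measured CpG outside CCGG and TCGA was 9223 bases, between Hoxd3 and Hoxd1. Neighbouring CpGs often had identical depths, as CpGs read on shared fragments do, so calls at CpGs within a fragment are not independent. Intervals below are 95% Wilson intervals on summed calls and cover counting error only.

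The cluster was lowly methylated in the Dnmt1+/+ library and, in contrast to most of the table, was higher in the Dnmt1-/- library. Over the 745 CpGs outside CCGG and TCGA, mean methylation was 12.3% in Dnmt1+/+ and 20.05% in Dnmt1-/-. Summed over calls the values were 12.2% (11.9% to 12.5%) and 16.7% (16.4% to 17.1%). Over the 996064 such CpGs of the whole table the means went the other way, from 45.0% to 15.1%. In the Dnmt1+/+ library 592 of the 745 CpGs were at 20% or less, 153 were between 20% and 80%, and 0 were at 80% or more, a level that 37.9% of CpGs in the table reached. In the Dnmt1-/- library the same counts were 493, 227 and 25. CpGs with 0 methylated calls also became more frequent, from 70 to 156. The median moved only from 8.33% to 9.48%, and the median difference per CpG was 0.48 points, beside -13.0 points over the table.

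For each CpG the methylated and unmethylated calls of the 2 libraries were set against each other with Fisher's exact test (two-sided), and p-values were adjusted over the whole table, with a threshold of 0.05. In the cluster 146 CpGs, or 19.6%, rose in Dnmt1-/-, beside a background of 0.635% of CpGs in the table. Another 54 CpGs, or 7.25%, fell, beside a background of 44.2%. The other 545 were not called. Among CpGs at 20% or less in Dnmt1+/+, 5.07% of those in the cluster fell, beside 2.83% of those in the table. By size alone, 138 CpGs were higher by at least 25 points (background 0.433%) and 17 were lower by as much (background 44.4%). The 592 CpGs at 20% or less in Dnmt1+/+ could not fall by 25 points. The 146 CpGs that rose had a median of 10.8% in Dnmt1+/+ and 55.2% in Dnmt1-/-, with a median difference of 38.3 points. Of these, 110 had been at 20% or less and 24 reached 80% or more. The 54 CpGs that fell had medians of 17.6% and 1.75%, with differences from -52.9 to -5.33 points. The ratio of Dnmt1-/- to Dnmt1+/+ calls was 0.743 over the CpGs that rose, 0.887 over those that fell and 0.798 over the rest. With every CpG thinned to 10 calls in each library, 31 CpGs rose and 0 fell. At 10 calls, falls from a median as low as 17.6% could hardly pass the adjusted threshold. The 0 therefore does not bear on the falls, and shares over the table after thinning are not given here.

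**Figure D1:**
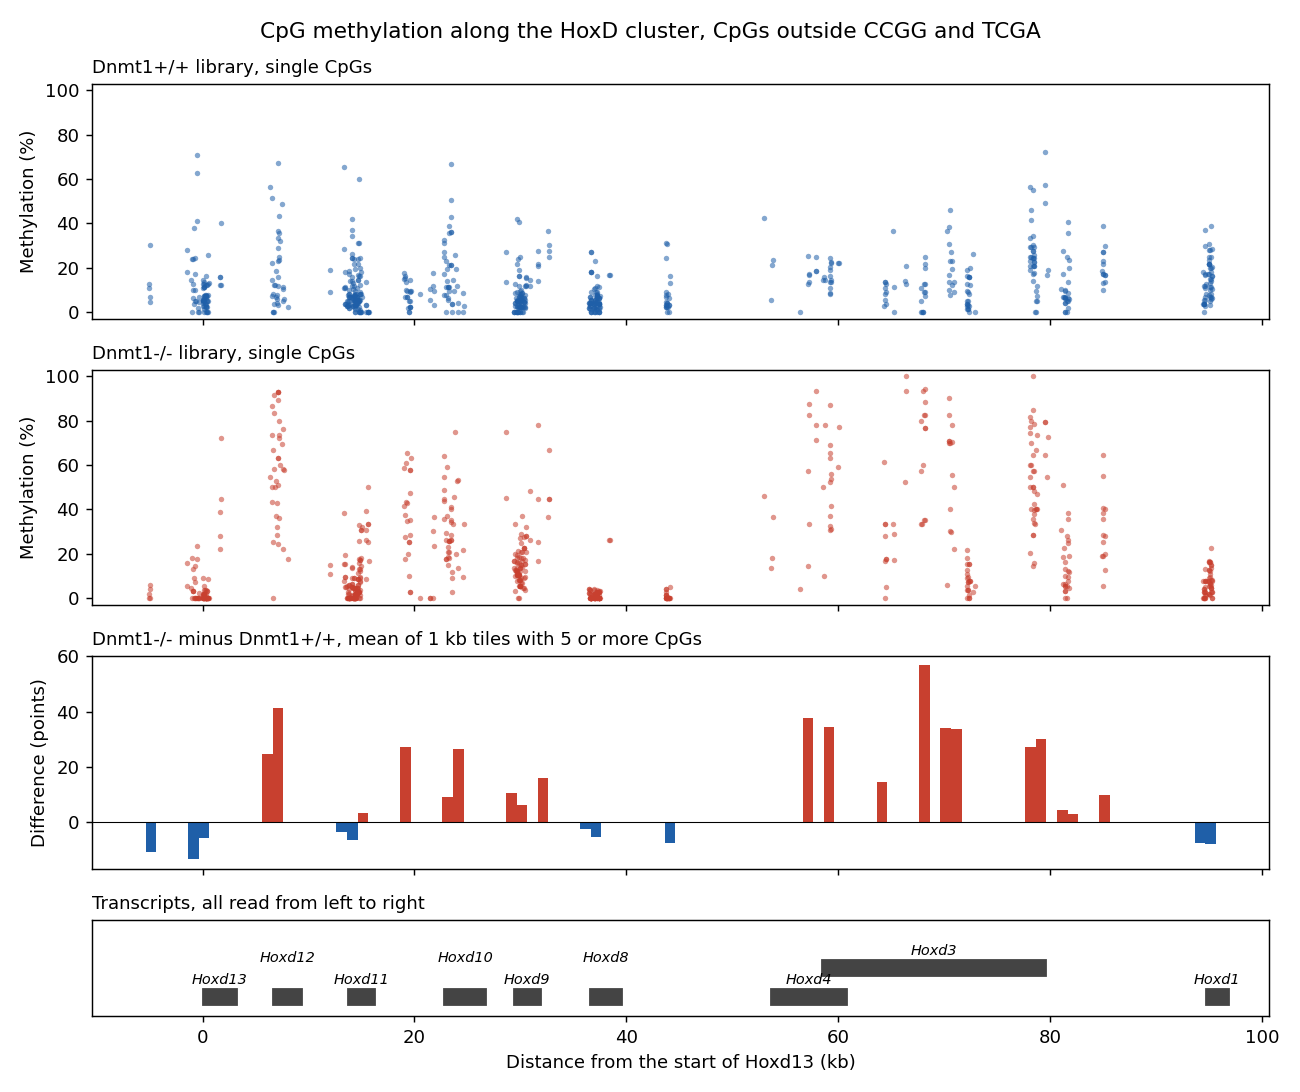
Methylation (%) of single CpGs outside CCGG and TCGA against distance from the start of Hoxd13 (kb), in the Dnmt1+/+ library (top, blue) and the Dnmt1-/- library (second, red), with the difference of 1 kb tile means (points, red higher and blue lower in Dnmt1-/-) and the transcripts used. No Dnmt1+/+ CpG reaches 80%, while Dnmt1-/- CpGs reach 80% or more at Hoxd12 and over Hoxd4 and Hoxd3, and the tiles at Hoxd13, Hoxd8 and Hoxd1 lie below 0.

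Gene by gene, CpGs were grouped within 1 kb either side of the start of the transcript with the longest coding sequence in GENCODE vM1. Hoxd12 and Hoxd3 stood far above their Dnmt1+/+ values, Hoxd10 and Hoxd9 were moderately higher, and Hoxd13, Hoxd11, Hoxd8 and Hoxd1 were lower. Of the 8 starts with at least 5 CpGs, 3 were higher by at least 10 points (background 0.71% of protein-coding promoters) and 0 were lower by as much (background 14.8%). Hoxd9 and Hoxd8 were below 10% in Dnmt1+/+ and could not fall by as much. The median difference of the 8 was 1.49 points, beside -1.35 points over the 12825 promoters of the table. Of the CpGs around Hoxd12, Hoxd3, Hoxd10 and Hoxd9, 72.7%, 83.3%, 17.1% and 18.3% rose (background 0.647% of promoter CpGs). The shares that fell there were 0%, 0%, 5.71% and 1.41%. Around Hoxd13, Hoxd11, Hoxd8 and Hoxd1, 0% rose, and 15.9%, 10.1%, 12% and 19.6% fell (background 7.18% of promoter CpGs).

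Hoxd13 patterns the digits and the urogenital tract and starts at 74506367, where the annotated transcript opens with the start codon. Its 69 CpGs averaged 10.02% in Dnmt1+/+ but 2.24% in Dnmt1-/-, or 9.31% (8.53% to 10.2%) and 1.93% (1.54% to 2.42%) over summed calls. Here 11 CpGs fell and 0 rose. The decrease was uneven along the start. Between 750 and 500 bp before it, 8 CpGs averaged 29.5% and 7.83%, the highest Dnmt1+/+ step of this gene, whereas the first 250 bp of the coding sequence held 26 CpGs at 7.06% and 1.49%. A single CpG before the start reached 70.6% in Dnmt1+/+, and the highest value around this start in Dnmt1-/- was 23.5%. Farther inside the gene the direction was the opposite. The 5 CpGs of the second exon, 1500 to 1750 bp after the start, were at 19.2% and 41.1%, but with only 125 and 90 calls none of them passed the test.

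Hoxd12, which also acts in the distal limb, had the clearest gain among the posterior genes. The 33 CpGs around its start at 74512986 averaged 20.4% in Dnmt1+/+ but 58.1% in Dnmt1-/-, or 20.2% (18.3% to 22.2%) and 57.4% (54.5% to 60.3%) over summed calls. Of these CpGs 24 rose and 0 fell. The gain was present on both sides of the start. The 5 CpGs before it went from 30.3% to 61.6%, and the 7 CpGs of the first 250 bp after it from 5.16% to 53.5%. Within the printed exon the sharpest single change was at 74513457, the sixth capital CpG, where 8 of 50 calls were methylated in Dnmt1+/+ and 25 of 28 in Dnmt1-/- (Fisher's exact test, adjusted p = 2.23e-09). The fifth CpG, at 74513448, was already at 67.3% in Dnmt1+/+ and reached 92.9%. Methylation in the Dnmt1+/+ library thus varied from 3.33% to 67.3% within a single exon, and every one of these CpGs was higher in Dnmt1-/-.

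Hoxd11, which shapes the forearm and contributes to kidney development, starts at 74520056 and had 89 CpGs around it, the most of any Hoxd gene. They averaged 10.2% in Dnmt1+/+ but 3.90% in Dnmt1-/-, or 10.9% (10.1% to 11.8%) and 3.64% (3.13% to 4.23%) over summed calls, and 9 fell while 0 rose. The 6 neighbouring CpGs at the start codon, within 40 bases from 74520441 to 74520480, averaged 24.5% and 6.18%. The 36 CpGs in the rest of the gene had means of 8.88% and 16.9%, with 9 that rose and 2 that fell, but over summed calls they were at 13.6% (12.4% to 15.02%) and 15.6% (14.1% to 17.2%), with overlapping intervals. Between 1000 and 1250 bp after it the means were 11% and 11.8% over 25 CpGs, and between 1750 and 2000 bp they were 0.67% and 30.1% over 5 CpGs, of which 1 rose, with only 78 and 71 calls.

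Hoxd10, which helps to specify lumbar motor neurons, starts at 74529147. Its 35 CpGs averaged 19.5% in Dnmt1+/+ and 30.4% in Dnmt1-/-, with 6 that rose and 2 that fell. This difference of 10.8 points was 14.5 points within 500 bp of the start, 12.2 points within 2 kb and 13.2 points around the start codon. It was lower, at 9.11 points, with the CCGG and TCGA CpGs included, 9.70 points at a depth of at least 20 in both libraries, 9.57 points without the deepest 1% of CpGs and 7.34 points over summed calls. The gain was mostly in the first 250 bp after the start, where 9 CpGs went from 15.4% to 40.1% and 4 of them rose. Between 500 and 750 bp the means were 31.6% and 29.3%. The 8 CpGs in the rest of the gene averaged 8.99% and 34.9%, and 5 of them rose. The Dnmt1-/- library was thin here, with 0.587 calls for each Dnmt1+/+ call around the start.

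Hoxd9, at 74535737, had 71 CpGs, which averaged 7.14% in Dnmt1+/+ but 14.8% in Dnmt1-/-, or 7.29% (6.55% to 8.10%) and 15.6% (14.5% to 16.9%) over summed calls. Here 13 CpGs rose and 1 fell. The gain was low but broad. In every 250 bp step from the start to 1250 bp after it the Dnmt1-/- mean lay between 11.8% and 19.5%, and the Dnmt1+/+ mean between 3.59% and 9.57%. The 17 CpGs in the rest of the gene averaged 11.9% and 24.97%, with 4 that rose.

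Hoxd8, at 74542962, was the least methylated start of the cluster in the Dnmt1+/+ library. Its 75 CpGs averaged 5.84% in Dnmt1+/+ but 1.13% in Dnmt1-/-, or 5.22% (4.67% to 5.84%) and 1.26% (0.98% to 1.62%) over summed calls. No CpG was above 27.3% in Dnmt1+/+ or above 4.17% in Dnmt1-/-. In this stretch 9 CpGs fell and 0 rose. CpGs were dense here, with a mean of 28.6 to 38.2 CpGs within 100 bp in the 250 bp steps of the first 1 kb.

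Hoxd4 and Hoxd3, which pattern the hindbrain and the cervical vertebrae, overlap, so that the CpGs around one start lie inside the other gene. Only 4 CpGs were measured around the start of the long Hoxd4 transcript at 74560035, with means of 23.0% and 28.5% and 0 called. The main Hoxd3 start lies at 74564785, inside Hoxd4, and a second Hoxd4 start lies at 74565131. Both starts have the same 18 CpGs within 1 kb, some of them in Hoxd4 coding sequence. Their means were 16.7% (Dnmt1+/+) and 55.5% (Dnmt1-/-), or 16.7% (15.2% to 18.3%) and 54.3% (52.0% to 56.6%) over summed calls. Here 15 rose and 0 fell, and the median depths of 146.5 and 92 calls were the highest at any Hoxd start. The gain cannot be assigned to one of the 2 genes.

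Mir10b encodes miR-10b, a microRNA conserved in the same place in Hox clusters, and its hairpin lies at 74564127 to 74564194 in this interval. Inside the hairpin, no CpG outside CCGG and TCGA had a measurement. The 3 CpGs just after it, in capitals in the printed sequence, were each covered by 118 and 90 calls and went from 18.6% to 71.1%, from 18.6% to 77.8% and from 24.6% to 93.3%. The last of these, at an adjusted p of 2.77e-23 by Fisher's exact test, had 29 methylated calls of 118 in Dnmt1+/+ and 84 of 90 in Dnmt1-/-. The 3 CpGs had equal depths and may have been read from the same fragments.

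The body of Hoxd3 held the most CpGs of any gene body, and 40.2% of them rose (background 1.59% of exon CpGs and 0.433% of intron CpGs). Over 107 CpGs outside its start window the means were 17.4% and 42.9%, and 43 CpGs rose while 1 fell. The background of falls was 65.4% of exon CpGs and 67.7% of intron CpGs. Over summed calls the gain was smaller, from 16.0% (15.1% to 16.97%) to 32.4% (31.0% to 33.7%). Its 68 intron CpGs went from 12.4% to 36.6%, or from 10.1% to 22.2% over summed calls, and its 39 exon CpGs from 26.2% to 53.8%, or from 27.8% to 49.4%. Neighbouring stretches of the long intron differed sharply. The 14 CpGs around an alternative start at 74574572 went from 9.43% to 66.3%, whereas the 22 CpGs of a stretch between 74578483 and 74578759 were at 8.36% and 8.29%, with 1 that rose. A distal Hoxd3 start at 74549986, upstream of Hoxd4, behaved like Hoxd8. Its 23 CpGs averaged 8.12% and 0.83%, with 5 that fell and 0 that rose. The distal and the main Hoxd3 start thus differed in opposite directions.

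Hoxd1, which acts in the sensory neurons that detect pain in the mouse, starts at 74601037 and closes the cluster. Its 56 CpGs averaged 14.6% in Dnmt1+/+ but 6.75% in Dnmt1-/-, or 14.3% (13.3% to 15.3%) and 6.97% (6.24% to 7.79%) over summed calls. Here 11 CpGs fell and 0 rose. The 24 CpGs between 250 and 500 bp after the start were the highest in Dnmt1+/+, at 18.3%, and were at 10.1% in Dnmt1-/-. No CpG was measured in the rest of the gene.

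**Figure D2:**
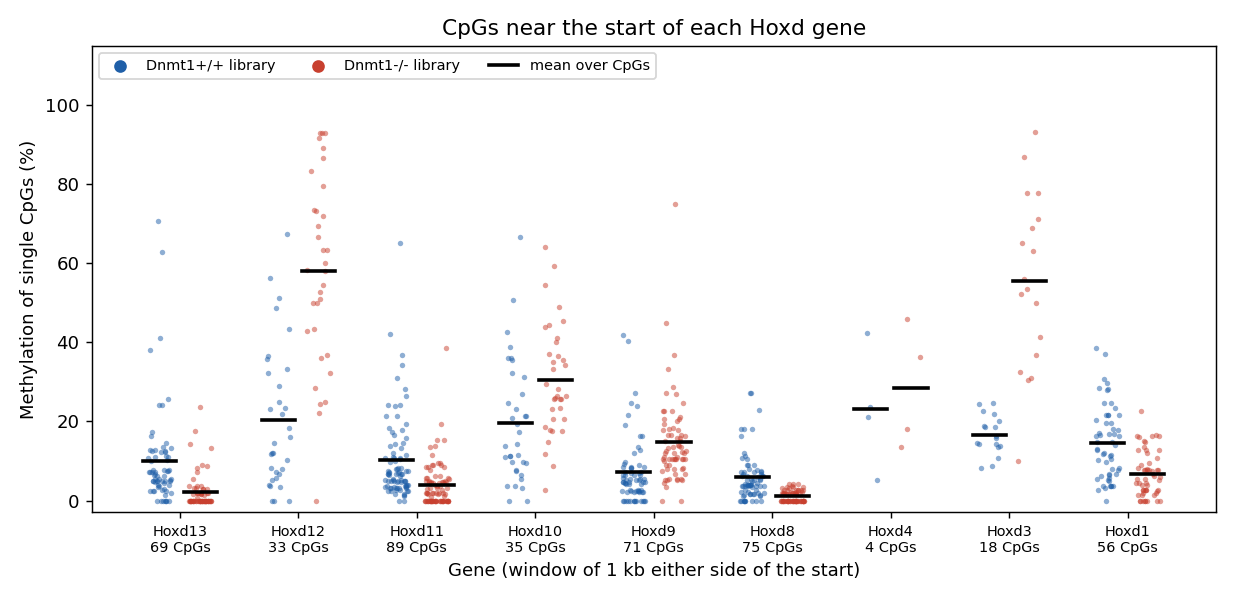
Methylation (%) of each CpG outside CCGG and TCGA within 1 kb of the start of the 9 Hoxd genes, in the Dnmt1+/+ library (blue) and the Dnmt1-/- library (red), with the mean over CpGs as a black bar. The clouds of Hoxd12 and Hoxd3 move from means of 20.4% and 16.7% to 58.1% and 55.5%, and those of Hoxd13 and Hoxd8 contract to 2.24% and 1.13%.

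Between the main transcripts, and more than 1 kb from their starts, gains and losses also alternated. The 10 such CpGs between the edge of the window and Hoxd13 averaged 14.9% in Dnmt1+/+ and 5.56% in Dnmt1-/-, with 3 that fell. The 27 CpGs between Hoxd11 and Hoxd10 averaged 8.55% and 30.9%, with 12 that rose and 0 that fell. On summed calls this interval was at 7.83% (6.45% to 9.47%) and 29.3% (26.6% to 32.2%). The 4 CpGs between Hoxd9 and Hoxd8 were at 29.7% and 47.98%, with 1 that rose. The 23 CpGs between Hoxd8 and Hoxd4 are those of the distal Hoxd3 start given above. Between Hoxd3 and Hoxd1, 43 CpGs went from 14.7% to 22.6% with 6 that rose, far less than in the neighbouring body of Hoxd3. By annotation, the 450 promoter CpGs averaged 11.4% and 13.6%, the 98 exon CpGs 18.0% and 39.6%, the 88 intron CpGs 11.1% and 32.3%, and the 109 CpGs between genes 12.3% and 19.3%. Over summed calls these values were 11.7% and 12.9%, 17.9% and 35.1%, 9.71% and 20.6%, and 11.8% and 15.9% in the same order. Promoters here are those of the main transcripts, so CpGs at the other Hoxd3 starts count as exon, intron or between genes. Of promoter CpGs 12.9% rose (background 0.647%) and 9.56% fell (background 7.18%). Of exon CpGs 35.7% rose (background 1.59%) and 1.02% fell (background 65.4%). Of intron CpGs 38.6% rose (background 0.433%) and 2.27% fell (background 67.7%). Between genes 17.4% rose (background 0.421%) and 7.34% fell (background 69.3%). Over the 571 CpGs within 1 kb of any annotated Hoxd start, 15.8% rose and 8.76% fell, and over the other 174 CpGs 32.2% rose and 2.30% fell.

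Tiles of 1 kb described the cluster without the gene models. Of 31 tiles with at least 5 CpGs, 10 gained at least 25 points in Dnmt1-/- (background 0.334%, or 0.56% among tiles at 20% or less in Dnmt1+/+) and 0 were lower by as much (background 48.1%). Most of the 31 tiles were below 25% in Dnmt1+/+ and could not fall by as much. The median tile difference was 9.26 points, beside -21.4 points over the table. Among tiles with at least 10 CpGs, the 3 most strongly higher were in the Hoxd3 intron (from 74574001, 14 CpGs, 9.43% to 66.3%), in Hoxd12 (from 74513001, 28 CpGs, 18.8% to 60.2%) and at the Hoxd4 coding exon (from 74565001, 14 CpGs, 16.0% to 50.4%). The 3 most strongly lower were before Hoxd13 (from 74505001, 19 CpGs, 19.5% to 6.12%) and on both sides of the Hoxd1 start (from 74601001, 40 CpGs, 15.9% to 7.95%, and from 74600001, 16 CpGs, 11.3% to 3.76%). The first tile was thin in the Dnmt1-/- library, with 239 calls beside 584. Over the 10 higher tiles the call ratio was 0.771, and over the other 21 it was 0.801.

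Called CpGs were also counted in runs. A run was at least 5 consecutive measured CpGs called in the same direction and no more than 1 kb apart from one to the next. There were 7 such runs of rising CpGs, with 58 CpGs, and 1 run of 6 falling CpGs, the one at the Hoxd11 start codon. The rising runs held 7.79% of the CpGs of the cluster (background 0.216%) and the falling run 0.81% (background 13.5%). The longest run had 16 CpGs in Hoxd12, from 74513254 to 74513573, and went from 22.1% to 61.8%. Next was a run of 11 CpGs in the Hoxd4 coding exons, from 74565569 to 74566472, from 18.0% to 58.1%. A run of 8 CpGs in the last exon of Hoxd3, from 74584976 to 74585862, went from 10.9% to 52.4%. The run around Mir10b had 7 CpGs and went from 19.2% to 71.8%. The Hoxd3 intron held 2 runs, of 6 CpGs from 2.64% to 59.5% and of 5 CpGs from 16.8% to 84.7%. The latter covered only 31 bases with 85 calls in Dnmt1-/- and 279 in Dnmt1+/+, at a median depth of 17 in Dnmt1-/-. The last run was the 5 CpGs printed above between Hoxd11 and Hoxd10. Run means in Dnmt1-/- lay between 44.7% and 84.7%, so most of these runs were partly rather than fully methylated.

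The gains were mostly at CpGs of low and medium local density, and the losses mostly at dense CpGs. Density was counted as the CpGs of the genome within 100 bp either side, and 25 of the 146 CpGs that rose and 40 of the 54 that fell were in the class of 20 or more. At fewer than 10 CpGs, 124 CpGs of the cluster went from 17.2% to 38.3%, and 33.1% of them rose while 4.03% fell. At 10 to 19 CpGs, 265 CpGs went from 13.4% to 26.7%, with 30.2% that rose and 3.40% that fell. At 20 or more, 356 CpGs went from 9.89% to 8.72%, and 7.02% rose while 11.2% fell. In the whole table the shares that rose in these classes were 0.127%, 1.07% and 1.01%, and the shares that fell were 77.0%, 31.9% and 5.16%. The share that rose was also above that of the table among CpGs at 20% or less in Dnmt1+/+. Within this limit the HoxD CpGs still started higher, at a mean of 7.45% beside 3.06%, and their median depth in Dnmt1+/+ was 57 beside 46. In this set 36.5%, 29.5% and 6% of CpGs rose in the 3 HoxD classes, beside backgrounds of 1.01%, 1.35% and 0.869%. Over the 592 HoxD CpGs at 20% or less, 18.6% rose, beside a background of 1.05%. The share that fell was also above the table in this set, at 5.07% beside 2.83%. Depth moved with density. Median depth in Dnmt1-/- was 22, 30 and 54 in the 3 classes, so the sparse class had the lowest median depth and the largest share of CpGs that rose.

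**Figure D3:**
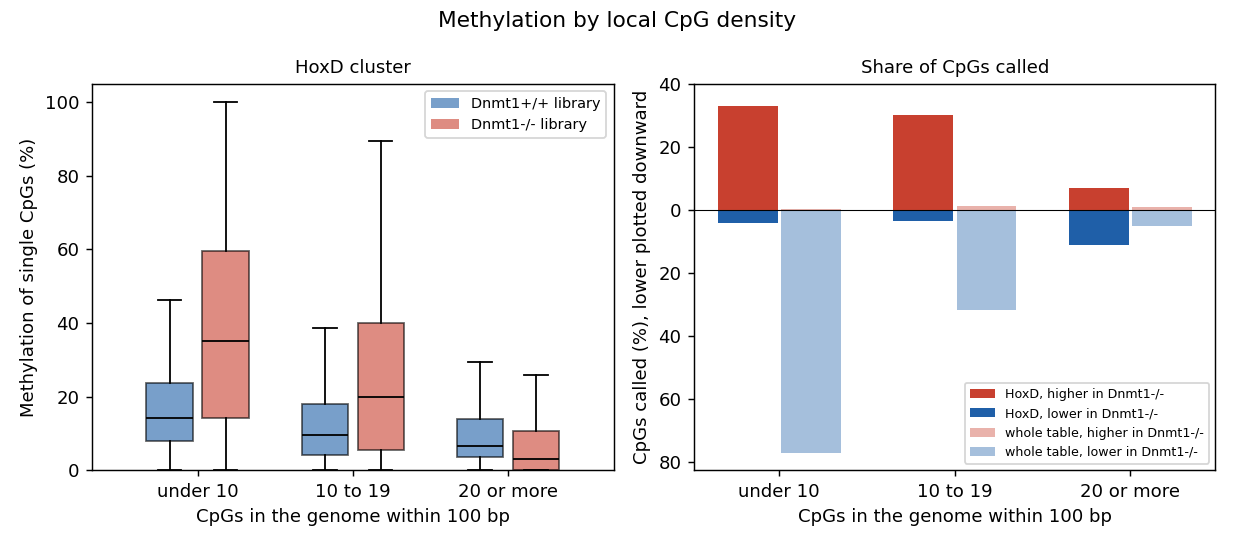
Left, methylation (%) of single HoxD CpGs outside CCGG and TCGA by the number of CpGs within 100 bp, for the Dnmt1+/+ (blue) and Dnmt1-/- (red) libraries, with boxes at the quartiles, a line at the median and whiskers to the last CpG within 1.5 box heights. Right, the share of CpGs (%) called higher (up) or lower (down) in Dnmt1-/-, for HoxD (dark) and the whole table (pale). In HoxD the share that rose goes from 33.1% in the sparsest class to 7.02% in the densest.

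CpG islands, long stretches rich in CpG, were computed by merging overlapping 200 bp windows that each had a GC content of at least 50% and reached a limit on the observed to expected CpG ratio. The limit applied to each window, so the ratio over a merged stretch could be lower. With a limit of 0.6 and a length of at least 200 bp, 55 stretches held 705 of the 745 CpGs, and the 40 CpGs outside them went from 20.3% to 34.9%. With a limit of 0.75 and a length of at least 500 bp, 15 stretches held 529 CpGs that averaged 10.7% and 12.4%, while the 216 CpGs outside averaged 16.5% and 38.7%. Outside these 15 stretches 42.6% of CpGs rose and 4.17% fell, and inside them 10.2% rose and 8.51% fell. Islands were computed around this window only, so the shares by island have no background from the table. Over summed calls the values inside them were 10.7% and 9.96%, so that the small difference in the means changed sign, and those outside were 17.3% and 40.1%. Taken whole, 4 of the 15 had a ratio below 0.75, and the other 11 held 476 CpGs at 10.3% and 10.8%, with 9.24% that rose and 9.03% that fell. The 15 stretches were not alike. Those at Hoxd13, Hoxd8 and Hoxd1 held 53, 75 and 54 CpGs with Dnmt1-/- means of 1.15%, 1.13% and 6.86%. The 502 bp stretch in the Hoxd3 intron, from 74574202 to 74574703, whose ratio over its whole length was 0.659, went from 10.6% to 68.8% over 11 CpGs, and the island over the last Hoxd3 exon, from 74584375 to 74585187, from 23.4% to 52.1% over 36 CpGs. The Hoxd9 island lay between these, at 7.21% and 14.6% over 81 CpGs.

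CpGs inside CCGG or TCGA, the recognition sequences of the restriction enzymes MspI and TaqI, made up 24.7% of the measured CpGs of the cluster and read differently. The 244 such CpGs averaged 55.6% in Dnmt1+/+ and 62.1% in Dnmt1-/-. Even in tiles whose other CpGs averaged under 5%, they were at 54.7% in Dnmt1+/+ (8 CpGs) and 52.6% in Dnmt1-/- (45 CpGs). A reading near 50% at these CpGs therefore did not follow that of their neighbours. Why was not tested, and the enzymes used are not given in the sources used here. In the cluster 29 of these CpGs, or 11.9%, rose, beside a background of 0.245% of all CCGG or TCGA CpGs in the table, and 6, or 2.46%, fell, beside a background of 43.1%. Over all 989 CpGs the means were 23.0% and 30.4%, and 175 CpGs rose (background 0.462%) while 60 fell (background 43.7%). At the Hoxd12 start 12 CCGG or TCGA CpGs went from 56.4% to 73.8%, and at the Hoxd13 start 14 such CpGs from 54.1% to 50.7%.

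The flanks of the cluster did not show the gains. In the 100 kb before the window, on the side of Evx2, 159 CpGs went from 14.5% to 3.46% and 1 rose. In the 100 kb after it, on the side of Mtx2, 43 CpGs went from 21.3% to 5.66%, or from 13.8% to 4.72% over summed calls, and 0 rose by Fisher's exact test after adjustment. The other Hox clusters resembled HoxD in level. Means in Dnmt1+/+ were 12.4%, 12.7% and 11.8% in HoxA, HoxB and HoxC, and in Dnmt1-/- they were 15.04%, 21.5% and 21.5%. The share of CpGs that rose was 20.4%, 29.0% and 26.7%, so the 19.6% of HoxD was the lowest of the 4 clusters, and its 7.25% that fell was also the lowest. The rank for rises depended on the set, since with CCGG and TCGA CpGs included HoxA was lowest, at 16.8% beside 17.7% in HoxD. HoxA also had the smallest difference in means, at 2.66 points beside 7.71 points in HoxD. The difference between clusters was not tested, since each has 1 library per genotype. At the densest CpGs, HoxD and HoxC had few gains (7.02% and 6.41%) and HoxA and HoxB more (19.7% and 29.7%).

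By paralogue, the means of the starts of groups 9 to 13 (those with 5 or more CpGs) in HoxA, HoxB and HoxC lay below their Dnmt1+/+ values, whereas in HoxD those of Hoxd9, Hoxd10 and Hoxd12 lay above. At Hoxc9 the difference was small, with 12.9% (11.2% to 14.9%) and 11.4% (9.73% to 13.4%) over summed calls, 1 CpG that rose and 2 that fell of 26. Hoxc12, the only measured paralogue of Hoxd12, had means of 4.59% and 1.43% over 7 CpGs with 0 called, whereas Hoxd12 went from 20.4% to 58.1%. Hoxa13, Hoxb13 and Hoxc13 went to 0.69%, 2.25% and 2.47%, beside 2.24% for Hoxd13. Hoxd10, higher by 10.8 points, also differed from Hoxa10 (10.5% to 1.01%) and Hoxc10 (25.3% to 7.94%). Of the 25 measured starts outside HoxD, 7 were higher by at least 10 points and 1 lower, with a median of -3.51 points. The largest gains outside HoxD were at Hoxb4 (11.1% to 72.0% over 7 CpGs) and Hoxc4 (5.58% to 62.7% over 23 CpGs), both of paralogue group 4. Hoxa4 was lower, from 9.46% to 2.67%, and Hoxd4 had only 4 CpGs around its main start and entered no count.

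**Figure D4:**
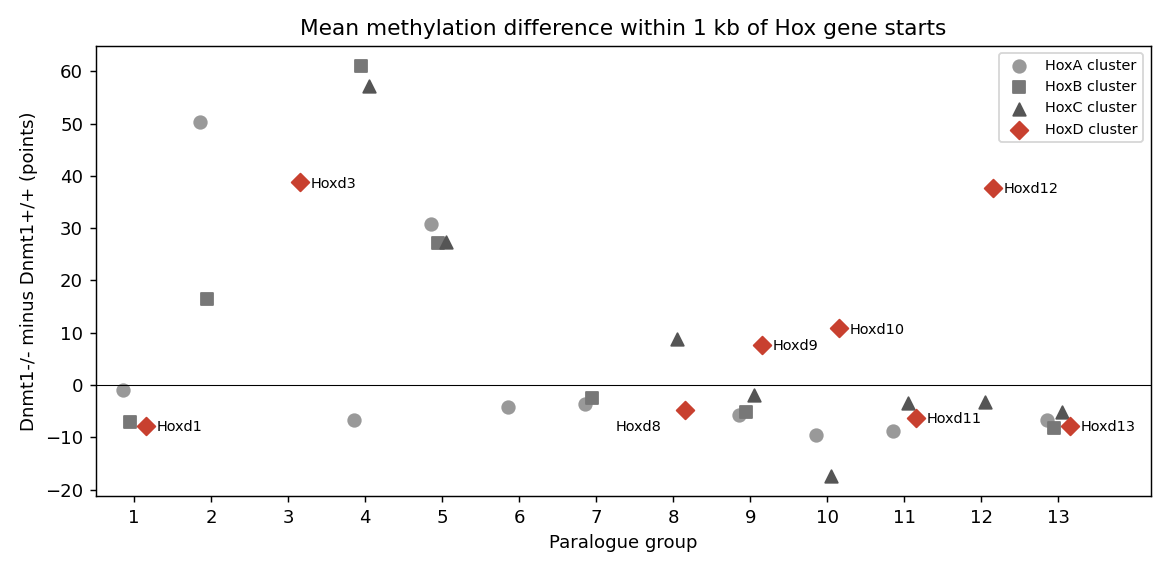
Mean difference in methylation (Dnmt1-/- minus Dnmt1+/+, percentage points) of CpGs outside CCGG and TCGA within 1 kb of each Hox start with at least 5 such CpGs, by paralogue group, with HoxD in red diamonds and HoxA, HoxB and HoxC in grey. Hoxd12 at 37.7 points lies far from Hoxc12, and the group 13 starts of all 4 clusters lie below 0.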

How the data were processed

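The deposited table gave, for each CpG and library, the depth, which is a count of methylation calls, and the percent of methyl-cytosine among all cytosine calls. Per the labels and methods, a sequencing provider did quality control, read processing and mapping, and the authors left out CpGs with fewer than 10 calls in either library. The submitters' processing notes name Bismark and mm9 without a Bismark version. The conversion rate is not given in the sources used here. All positions fell on a CG of NCBIM37 when starts were read as 0-based, and coordinates are given 1-based. Percent times depth came out whole (tolerance 1e-06) at every CpG, which returned the methylated calls.

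The calls of each CpG were compared with Fisher's exact test (two-sided), adjusted over the whole table after Benjamini and Hochberg, with a threshold of 0.05. The test compares 2 libraries and not 2 genotypes. Means give each CpG equal weight. CpGs in CCGG or TCGA were kept out of the main values. Genes came from GENCODE vM1, with the transcript of the longest coding sequence, and windows with fewer than 5 CpGs entered no count. The 3 most strongly higher and lower tiles with at least 10 CpGs were named. No p-value was taken across CpGs, tiles or genes. The members and lists were chosen with earlier results of these data known. The analysis ran in Python 3.11.15 with scipy 1.17.1, pandas 2.3.3, numba 0.67.0, numpy 2.4.6 and matplotlib 3.10.9.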

Additional observations from a re-analysis of the deposited data

How the results depend on the processing

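The Dnmt1-/- cluster mean stayed above the Dnmt1+/+ mean under the alternatives run. Of 56 recomputed cluster values, 33 stayed within 1.5 times the reported count or within the 95% counting interval of the reported mean, and 23 lay outside. With CCGG and TCGA CpGs kept, the cluster means were 23.0% and 30.4%. At a depth of at least 20 they were 11.9% and 16.3%, and over summed calls the Dnmt1-/- value was 16.7%. For the counts of called CpGs that follow, shares over the whole table under the same setting are not given here. A depth limit also leaves fewer CpGs to count. The count of CpGs that rose, 146, became 102 at a depth of at least 20, 108 at an adjusted p under 0.01, 113 with a difference of at least 25 points and 31 when CpGs were thinned to 10 calls. The count of CpGs that fell, 54, became 35 at an adjusted p under 0.01, 11 with a difference of at least 25 points and 0 after thinning. With 10 calls, falls from such low levels could hardly be called, so this 0 does not bear on them. Tiles higher by 25 points numbered 10 of 31, but 6 of 18 with 5 kb tiles and 1 at a difference of 50 points. Runs of rising CpGs numbered 7, and 20, 2 or 4 with at least 3 CpGs, at least 10 CpGs or an adjusted p under 0.01. Runs of falling CpGs numbered 1, and 4 or 0 with at least 3 or at least 10 CpGs. With the island limit of 0.75 the means were 10.7% and 12.4% inside and 16.5% and 38.7% outside. With that limit also met over the whole stretch, an alternative chosen after seeing the data, they were 10.3% and 10.8% inside and 16.0% and 36.4% outside. The number of starts higher by 10 points was 2 or 3 under every alternative run, and Hoxd10 was the gene that left the count in 4 of them, while windows of 500 bp left fewer than 5 CpGs at Hoxd3. Around the start codon the 3 were not the same genes, since Hoxd3 had 0 CpGs there and Hoxd4 entered at 34.5 points. No paired analysis was possible because the labels carry no replicate numbers and a genotype has 1 library. For the same reason no library could be left out. Depth limits single CpGs, since 3 calls are 30% of a CpG read 10 times.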

Other observations

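Transcripts other than the Hoxd genes also start within the window, and their CpGs outside CCGG and TCGA gave the following values. The start of the long noncoding RNA Gm20440, within Hoxd11, had 86 CpGs at 8.82% in Dnmt1+/+ and 8.83% in Dnmt1-/-, with 9 CpGs that rose and 4 that fell. Over summed calls this start was at 10.6% and 9.11%. The long noncoding RNA Gm14424, between Hoxd3 and Hoxd1, had 14 CpGs at 20.7% and 30.8%, with 4 that rose. The antisense transcript 6720416L17Rik has 2 annotated starts. One, at 74588563, had 24 CpGs at 10.5% and 13.1%, and the other, at 74600953, shares the 56 CpGs of the Hoxd1 start and its lower value in Dnmt1-/-. The antisense RNA 1700109F18Rik has starts at 74550111 and 74550583 that share the 23 CpGs of the distal Hoxd3 start, and they too were lower in Dnmt1-/-.

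The starts of 3 neighbouring genes outside the cluster were read as well. Evx2, the homeobox gene next to Hoxd13, had 25 CpGs at 9.89% and 6.34%, or 13.5% (11.9% to 15.1%) and 6.91% (5.75% to 8.30%) over summed calls, with 1 that rose and 4 that fell. Lnp, a gene of the endoplasmic reticulum, had 18 CpGs at 1.41% and 1.18%. Mtx2, which encodes a mitochondrial import protein, had 33 CpGs at 3.63% and 1.10%. In the Dnmt1+/+ library the main Hoxd starts, at 5.84% to 20.4% with at least 5 CpGs, thus lay above the starts of Lnp and Mtx2.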
